A study of Mus musculus with 8 samples.

Results

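Osteoclasts are the multinucleated cells that resorb bone, and they form from precursors of the monocyte and macrophage lineage. M-CSF (macrophage colony-stimulating factor) keeps these precursors alive and induces the receptor RANK, and binding of RANKL to RANK recruits the adaptor TRAF6. Signals from TRAF6 and from ITAM-bearing receptors then raise the transcription factor NFATc1, which drives genes for cell fusion and for resorption. The genes described here were chosen by name to cover this route, with earlier results of these data known. They number 10 of the 53819 genes in the count table. *Tnfrsf11a* encodes RANK, *Traf6* its adaptor, *Oscar* a costimulatory receptor and *Nfatc1* the master transcription factor. *Dcstamp*, *Ocstamp* and *Atp6v0d2* serve cell fusion, *Acp5* and *Ctsk* encode enzymes of resorption, and *Enpp1* encodes an enzyme that makes pyrophosphate, an inhibitor of mineral deposition.

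Expression was measured by RNA sequencing in bone marrow-derived macrophages (BMDM) from 4 female BALB/cJ mice aged 8 weeks. Marrow cells of each mouse were grown apart for 5 days with 25 ng/mL M-CSF, and each mouse gave a culture treated for 48 h with 2.5 µM bilirubin and a culture treated with DMSO vehicle. No genotype other than the strain was given, and no addition of RANKL was stated. The comparison asked how bilirubin, a product of heme breakdown, alters macrophages, and it is read here for genes of osteoclast formation and bone remodeling.

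The 8 libraries held between 34142800 and 47071700 counts on genes (rounded to 6 digits). All 9 macrophage markers were above 1 CPM (counts scaled to library size, with edgeR's TMM factors), and their summed level was 24401 to 24734 CPM with vehicle and 28852 to 30968 CPM with bilirubin, with 4 markers higher and none lower. Most of the sum was *Lyz2*, with a mean of 19145.4 CPM with vehicle and 24368.5 CPM with bilirubin. The 4 higher were *Lyz2*, *Adgre1*, *Itgam* and *Cd14*. The others did not pass, with log2 fold changes of -0.16 (*Cd68*), -0.15 (*Mertk*), -0.20 (*Fcgr1*), -0.02 (*Csf1r*) and 0.08 (*Spi1*). Of 13 osteoblast and stromal markers, *Col1a1*, *Col1a2* and *Runx2* were above 1 CPM and 2 were at 0 in every library, and the sum went from 14.2 to 18.5 CPM with vehicle to 8.66 to 14.9 CPM with bilirubin, with *Runx2* lower. Among neutrophil markers *S100a8* alone was above 1 CPM, and it was higher with bilirubin (log2 fold change 1.07, adjusted p = 3.34e-04). That list summed to 11.5 to 14.2 CPM with vehicle and 20.2 to 32.8 CPM with bilirubin. Dendritic cell markers summed to 71.0 to 95.8 and 84.3 to 124 CPM, with *Itgax* and *Batf3* above 1 CPM and neither past the threshold. Lymphocyte markers summed to at most 0.194 CPM, and mast cell, basophil and erythroid markers to at most 0.249 CPM. The part of these marker levels in the results below was not tested. In bulk libraries, fewer cells of a type and less RNA per cell cannot be told apart.

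Bilirubin treatment increased *Dcstamp*, *Ctsk* and *Acp5* and decreased *Enpp1* and *Traf6*. The receptor *Tnfrsf11a*, the transcription factor *Nfatc1* and the fusion genes *Ocstamp* and *Atp6v0d2* did not pass the threshold, and *Oscar* had no counts. Calls are from the quasi-likelihood test of edgeR, which set each bilirubin culture against its mouse's own vehicle culture, at an adjusted p (Benjamini-Hochberg over 13722 tested genes) under 0.05. Thus, 3 of the 9 tested genes were higher and 2 were lower, where 4.49% of all tested genes were higher and 3.04% lower, 7.53% in either direction. Because the genes were chosen with earlier results known, these counts describe them and do not test the set. The median log2 fold change of the 9 genes was -0.01, and that of all tested genes was -0.00. Each of the 5 genes past the threshold moved in the same direction in all 4 mice, and its vehicle and bilirubin libraries did not overlap. The share of all tested genes without overlap was not counted. Some genes of the lists below, such as *Rela*, *Cd44* and *Bcl6*, had both traits without passing the threshold. The study tested these same libraries and lists altered genes, *Enpp1* and *Traf6* among them. Its gene set enrichment results also name *Ctsk*. The study further places bone remodeling among the processes raised by bilirubin. The direction of all 5 genes here is therefore not independent evidence.

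**Figure D1:**
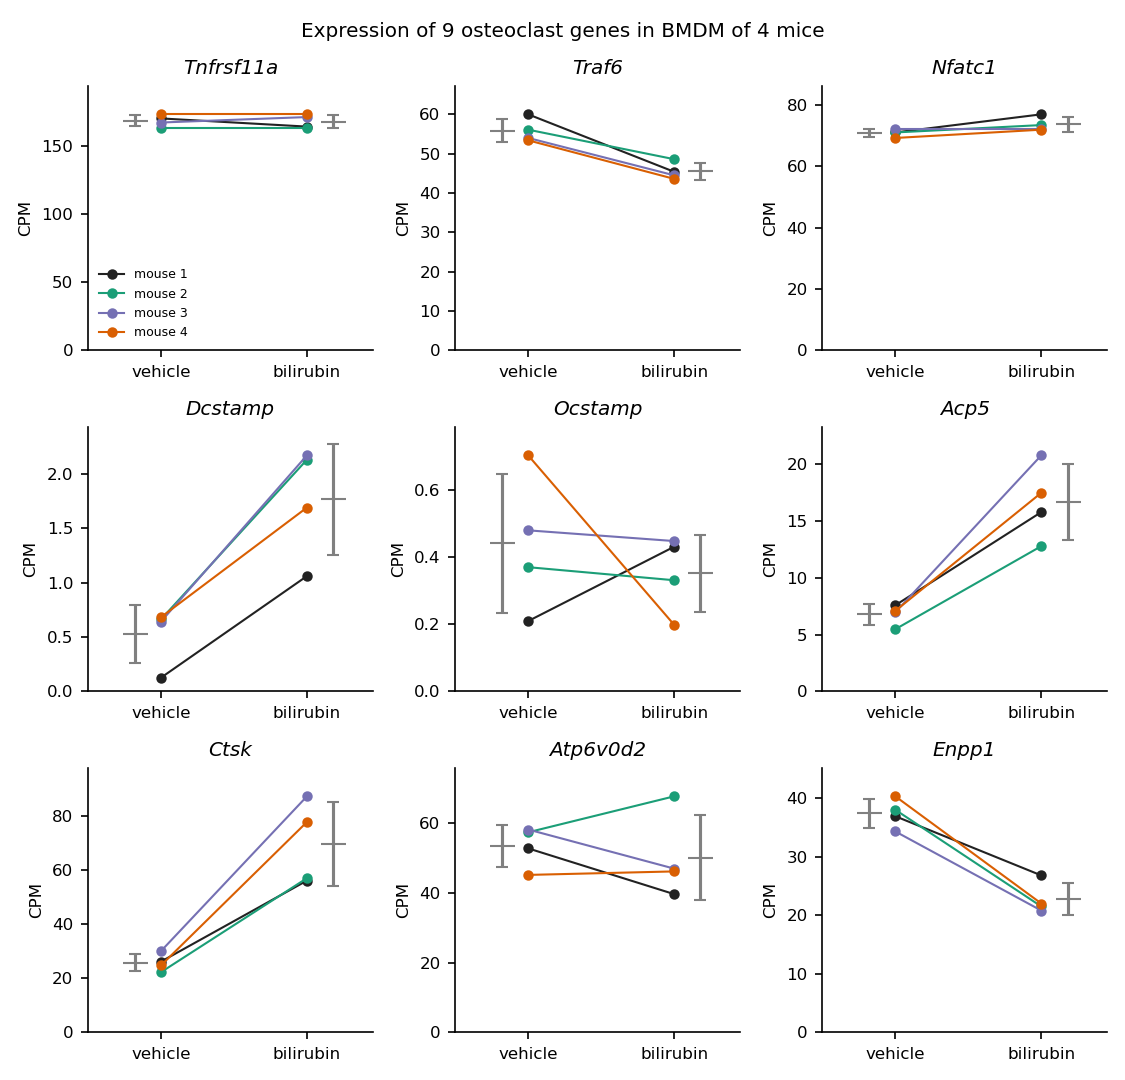
Expression in CPM scaled by TMM (linear axis from 0) of the 9 genes with counts, in vehicle and bilirubin cultures. Each point is a library, lines join the cultures of a mouse, and grey bars are the mean ± SD of 4 mice. The vehicle and bilirubin points do not overlap for *Traf6*, *Dcstamp*, *Acp5*, *Ctsk* and *Enpp1*.

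RANK, the receptor for RANKL on osteoclast precursors, did not pass the threshold. *Tnfrsf11a* (ENSMUSG00000026321) was between 163 and 173 CPM in every library, and the conditions overlapped. Its log2 fold change was -0.01 (SE 0.03, 95% confidence interval -0.08 to 0.07, adjusted p = 0.945). The lncRNA *Gm70609* overlaps it on the same strand in the GENCODE annotation of GRCm39, and reads from shared stretches cannot be told apart.

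*Traf6* (ENSMUSG00000027164), the ubiquitin ligase that carries the RANK signal to NFκB and MAP kinases, was lower with bilirubin. With vehicle, mice 1 to 4 had 60.0, 56.1, 54.0 and 53.4 CPM, and with bilirubin they had 45.4, 48.6, 44.5 and 43.6 CPM. The lowest vehicle library was above the highest bilirubin library. On average *Traf6* fell by 0.29 on the log2 scale (SE 0.04, 95% confidence interval -0.40 to -0.19, adjusted p = 0.00478), or 1.23-fold, from 55.9 ± 2.98 to 45.5 ± 2.15 CPM (SD, n = 4). The log2 differences in mice 1 to 4 were -0.40, -0.21, -0.28 and -0.29.

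*Oscar* (ENSMUSG00000054594), a collagen receptor that signals through the ITAM adaptor FcRγ and a known NFATc1 target, had 0 counts in all 8 libraries. A count of 0 allows up to 3 counts, which corresponded to 0.0631 to 0.0863 CPM depending on the library, counting error only. The gene was therefore not detectable at this depth with or without bilirubin, and it was not tested.

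*Nfatc1* (ENSMUSG00000033016) was detected in every library at 69.2 to 76.9 CPM. With vehicle the mean was 70.8 ± 1.19 CPM and with bilirubin 73.6 ± 2.33 CPM (SD, n = 4), and the ranges overlapped. The log2 fold change of 0.05 (SE 0.04, 95% confidence interval -0.03 to 0.14) did not pass the threshold (adjusted p = 0.465). During osteoclast formation NFATc1 is known to act on its own gene from an upstream start, which yields the short isoform, whereas other isoforms begin downstream. Transcripts from the downstream start held 98.4% of the gene's TPM (transcript abundance scaled for length and library size) with vehicle and 98.2% with bilirubin. Those from the upstream start held 1.64% and 1.84%, between 0.773% and 2.94% in single libraries. By TPM the upstream transcripts summed to 0.201, 0.703, 0.236 and 0.532 in vehicle cultures and 0.842, 0.374, 0.382 and 0.35 in bilirubin cultures, which overlapped. Such transcript values are Salmon's estimates, and 4 pairs cannot give an exact paired permutation p below 0.125, so they are given without a test. The grouping by start was made after the values had been seen.

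*Dcstamp* (ENSMUSG00000022303, chromosome 15, 39609214 to 39624334, plus strand) encodes DC-STAMP, the membrane protein needed for fusion of osteoclast precursors. It was scarce, and mice 1 to 4 gave 6, 25, 28 and 29 counts with vehicle and 37, 77, 87 and 68 counts with bilirubin. In CPM this was 0.126, 0.662, 0.642 and 0.682 with vehicle and 1.06, 2.13, 2.17 and 1.69 with bilirubin. All bilirubin libraries were above all vehicle libraries, and the vehicle culture of mouse 1 was well below the other 3. The log2 fold change was 1.83 (SE 0.30, 95% confidence interval 1.14 to 2.52, adjusted p = 0.00818), with differences of 2.66, 1.62, 1.68 and 1.25 in the 4 mice. Without mouse 1 the change was 1.58 (adjusted p = 0.00189). Without mouse 3 it was 1.87 and no longer passed (adjusted p = 0.0760), nor did it with an offset for transcript length (1.38, adjusted p = 0.0816). Over the 12 alternatives its adjusted p was between 1.54e-07 and 0.0816.

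*Ocstamp* (ENSMUSG00000027670), which encodes the partner fusion protein OC-STAMP, did not pass the threshold. Its counts were 10, 14, 21 and 30 in vehicle cultures and 15, 12, 18 and 8 in bilirubin cultures. The conditions overlapped, with 1 mouse higher and 3 lower. Its log2 fold change was -0.27 (SE 0.47, adjusted p = 0.811), and the 95% confidence interval of -1.35 to 0.80 was wide at these counts. Without mouse 4, whose difference was the largest at -1.60, the value was 0.23. Whether the changes of *Dcstamp* and *Ocstamp* differ was not tested.

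*Atp6v0d2* (ENSMUSG00000028238) encodes the d2 subunit of the vacuolar proton pump, used for fusion and acid secretion in osteoclasts. Vehicle cultures of mice 1 to 4 had 52.7, 57.3, 58.1 and 45.1 CPM and bilirubin cultures 39.6, 67.6, 46.9 and 46.1 CPM. The subunit moved in different directions, lower in mice 1 and 3 and higher in mice 2 and 4. Its log2 fold change was -0.11 (SE 0.10, 95% confidence interval -0.33 to 0.12, adjusted p = 0.605). The d1 subunit gene *Atp6v0d1*, expressed in most cells, also did not pass (0.04, adjusted p = 0.5005). By TPM, *Atp6v0d2* made up 13.4% to 16.9% of the sum of d1 and d2 with vehicle and 10.7% to 17.5% with bilirubin.

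*Acp5* (ENSMUSG00000001348, chromosome 9, 22038023 to 22049355, minus strand) encodes TRAP, the tartrate-resistant acid phosphatase used as the classical stain for osteoclasts. With vehicle it was at 7.59, 5.48, 6.97 and 7.10 CPM in mice 1 to 4, and with bilirubin at 15.8, 12.8, 20.8 and 17.5 CPM. Every bilirubin library was above every vehicle library. Bilirubin increased *Acp5* by 1.29 on the log2 scale (SE 0.09, 95% confidence interval 1.077 to 1.504, adjusted p = 1.65e-04), or 2.45-fold, with 1.05 to 1.57 in single mice.

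The added *Acp5* RNA was spread over several transcripts. ENSMUST00000069330, the main transcript with vehicle, held 84.0% of the gene's TPM with vehicle and 50.7% with bilirubin, while its own TPM was higher with bilirubin in all 4 mice (7.35 ± 0.930 and 10.7 ± 2.92). ENSMUST00000115315 was listed at 0 in the vehicle cultures of mice 1 to 3 and at 1.56 TPM in that of mouse 4, and it was at 5.28, 2.90, 6.70 and 5.72 TPM in the bilirubin cultures. Its length is 1349 bases in the files and 2375 bases in the GENCODE annotation, so the model that was quantified is not the one annotated there. ENSMUST00000217643 was at 2.48, 0.111, 0.410 and 0.232 TPM with vehicle and at 5.15, 4.33, 5.60 and 3.27 TPM with bilirubin. The latter transcripts together were thus small with vehicle and near the main transcript with bilirubin, again as untested estimates.

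**Figure D2:**
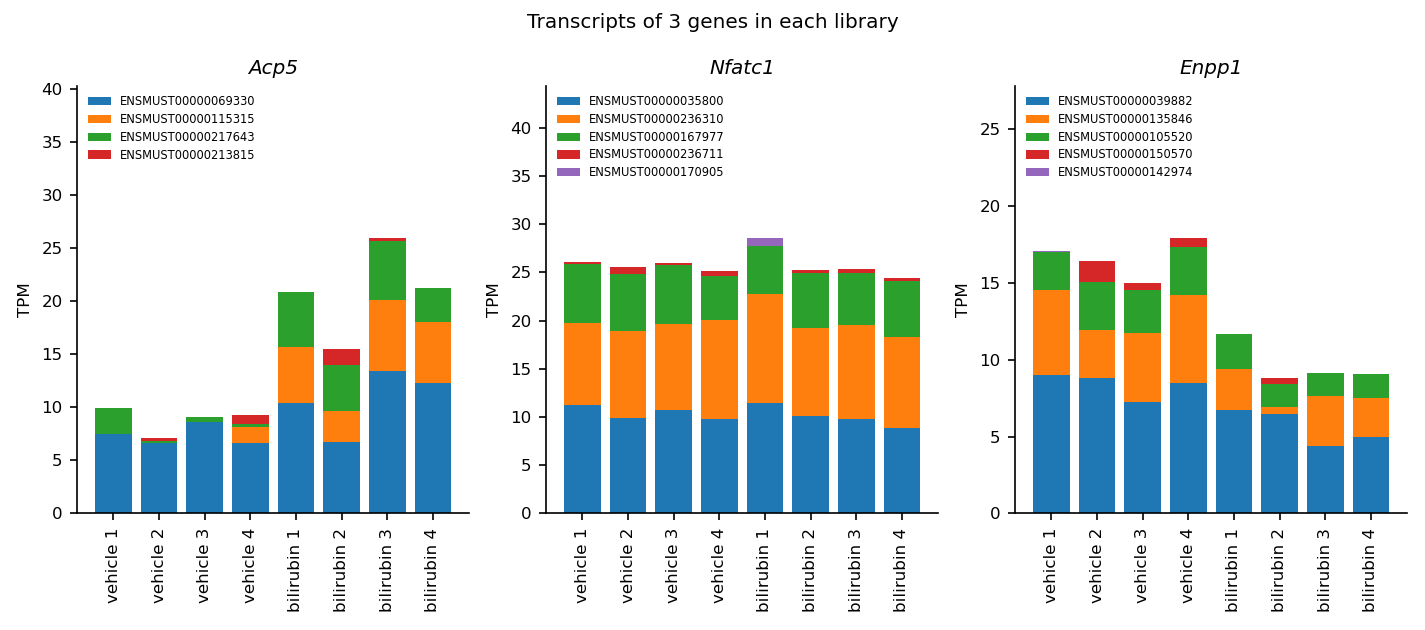
TPM of each transcript (stacked, linear axis from 0) of *Acp5*, *Nfatc1* and *Enpp1* in the 8 libraries, as estimated by Salmon. For *Acp5* the orange and green transcripts (ENSMUST00000115315 and ENSMUST00000217643) are larger with bilirubin in all 4 mice, the *Nfatc1* bars are of like height and make-up, and the *Enpp1* bars are shorter with bilirubin.

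*Ctsk* (ENSMUSG00000028111, chromosome 3, 95406178 to 95416732, plus strand) encodes cathepsin K, the protease that degrades bone collagen. Its expression was 26.2, 22.3, 30.1 and 24.8 CPM in mice 1 to 4 with vehicle, and 56.2, 57.1, 87.4 and 77.9 CPM with bilirubin. The lowest bilirubin library was above the highest vehicle library. The log2 fold change was 1.41 (SE 0.08, 95% confidence interval 1.223 to 1.603, adjusted p = 5.51e-05), a 2.66-fold increase from 25.9 ± 3.27 to 69.7 ± 15.5 CPM (SD, n = 4). Single mice rose by 1.1 (mouse 1), 1.35, 1.53 and 1.65 (mouse 4) on the log2 scale. Cathepsin K remained a minor cathepsin of these cells. By TPM it was 0.126% to 0.166% of the sum of 5 cathepsin genes (*Ctsb*, *Ctsk*, *Ctsl*, *Ctss* and *Ctsz*) with vehicle and 0.268% to 0.464% with bilirubin, higher in all 4 mice.

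*Enpp1* (ENSMUSG00000037370, chromosome 10, 24513812 to 24588057, minus strand) encodes the ectoenzyme that hydrolyses extracellular ATP to AMP and pyrophosphate. Vehicle cultures of mice 1 to 4 were at 36.9, 38.0, 34.3 and 40.3 CPM and bilirubin cultures at 26.8, 21.5, 20.8 and 22.0 CPM. No bilirubin library reached the vehicle range. *Enpp1* fell by 0.72 on the log2 scale (SE 0.07, 95% confidence interval -0.88 to -0.56, adjusted p = 6.74e-04), that is 1.64-fold, from 37.4 ± 2.50 to 22.8 ± 2.69 CPM (SD, n = 4). Mouse 1 showed the smallest difference, -0.46, and mouse 4 the largest, -0.87. ENSMUST00000039882, which the GENCODE annotation types as subject to nonsense-mediated decay, held 50.5% of the gene's TPM with vehicle and 58.4% with bilirubin. The coding transcripts ENSMUST00000135846 and ENSMUST00000105520 held 28.3% and 17.3% with vehicle and 22.8% and 17.5% with bilirubin, and each of the 5 transcripts had a TPM no higher with bilirubin in any mouse.

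**Figure D3:**
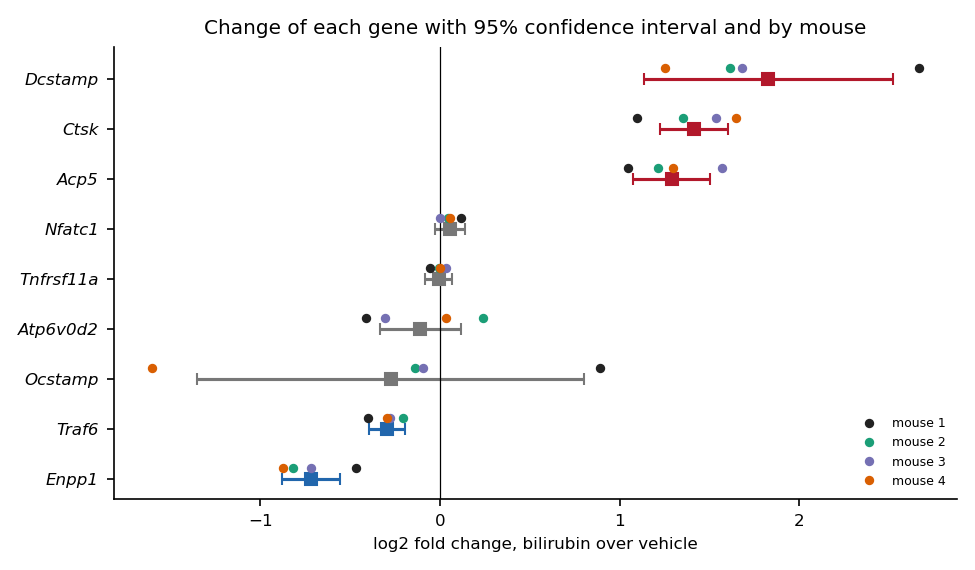
Log2 fold change of bilirubin over vehicle for the 9 tested genes. Squares are the fitted change with its 95% confidence interval (red, higher; blue, lower; grey, not past the threshold) and points the difference in each mouse. All points of *Dcstamp*, *Ctsk* and *Acp5* are above 1, and those of *Traf6* and *Enpp1* are below 0.

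The order of the genes by TPM, which allows levels of different genes to be compared, was not the same in both conditions. TPM depends on the transcript lengths used, and some were shorter than in the GENCODE annotation. The main transcript was 5029 bases against 6490 for *Tnfrsf11a*, and 1512 against 1894 for *Ctsk*. With vehicle *Tnfrsf11a* was the most abundant at 59.0 ± 1.89 TPM, followed by *Atp6v0d2* (35.0 ± 3.83), *Ctsk* (29.99 ± 3.76) and *Nfatc1* (25.7 ± 0.404), whose ranges overlapped from one to the next. Next came *Enpp1* (16.6 ± 1.23) and *Traf6* (15.4 ± 0.570), which overlapped each other, then *Acp5* (8.83 ± 1.20), and at the low end *Dcstamp* (0.707 ± 0.393) and *Ocstamp* (0.197 ± 0.0924), which overlapped. With bilirubin *Ctsk* stood first at 78.1 ± 16.5 TPM, above *Tnfrsf11a* (56.3 ± 1.89) in every library. *Acp5* (20.9 ± 4.31 TPM) overlapped *Nfatc1* (25.9 ± 1.84), which overlapped *Atp6v0d2* (32.1 ± 7.66), while *Traf6* (12.1 ± 0.784) and *Enpp1* (9.68 ± 1.35) came below. *Dcstamp* (1.64 ± 0.501 TPM) no longer overlapped *Ocstamp* (0.154 ± 0.0537).

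Sequence was read from the 250 bases before each RefSeq start. The RefSeq promoter table was made on an older build, and its sequences were placed on GRCm39 by exact match. It held 6 of the 10 genes, namely *Tnfrsf11a*, *Traf6*, *Acp5* (at 3 starts), *Ctsk*, *Oscar* and *Enpp1*, and none was printed for the others. Matches were searched on both strands for motifs of factors known from osteoclasts: TGANTCA for AP-1, GGAAA for NFAT, GAGGAA for PU.1, TCANGTG for MITF, and the NFκB motif. A GAGGAA followed by A also holds GGAAA. Over 32851 promoters of the same length, the shares with a match were 6.75% for AP-1, 55.6% for NFAT, 23.3% for PU.1, 12.2% for MITF and 7.25% for NFκB. The stretches of 30 bases below, each 5′ to 3′ on the strand of its gene with the match in capitals, are shown because they hold the PU.1, MITF or NFκB matches of the 4 genes that changed and were in the table.
*Ctsk* at chr3:95406276-95406305, plus strand, PU.1, 233 bases before the start: gtcagacattttGAGGAAgaatggagacaa
*Ctsk* at chr3:95406451-95406480, plus strand, PU.1, 58 bases before the start: aaatgtgtgtccTTCCTCcctaacccctcc
*Traf6* at chr2:101508592-101508621, plus strand, PU.1, 161 bases before the start: ttgcactggtccGAGGAAgggctacgtgat
*Traf6* at chr2:101508647-101508676, plus strand, PU.1, 106 bases before the start: aaacttctttgcGAGGAAgggcggggtaag
*Acp5* at chr9:22041967-22041996, minus strand, MITF, 90 bases before the start: aagtccagtgctCACATGAcccaaggggag
*Enpp1* at chr10:24588141-24588170, minus strand, NFκB, 103 bases before the start: gggctacgcgGGGGGATTCCgcaagggttc

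*Ctsk*, which was higher, and *Traf6*, which was lower, both held a pair of PU.1 matches. The *Acp5* start with the MITF match also held 2 NFAT matches. These RefSeq windows are not all upstream of the gene in the GENCODE annotation. The *Ctsk* and *Traf6* stretches overlap noncoding exon sequence of 5 of 7 and 6 of 10 annotated transcripts, and the *Acp5* stretch lies within 13 of 15, mostly in an intron. The *Enpp1* stretch lies before every annotated start. The window of *Tnfrsf11a*, which did not pass the threshold, held none of the 5 motifs. The window of *Oscar*, which had no counts, held 3 NFAT matches, 1 PU.1 match and 1 MITF match, and no window of the 6 genes held AP-1. A match describes letters in the window and is not evidence of a bound site.

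The other genes of the route were read from 8 lists, which together held 137 genes, of which 122 were tested. Of these 21 (17.2%) were higher and 13 (10.7%) lower, against 4.49% and 3.04% of all tested genes, and their median log2 fold change was 0.03. The lists were written with earlier results of these data known, and some of their genes, such as *Mmp9* and *Mmp14*, are also ones that the study named from these libraries, so the counts are not independent evidence. Of the 33 list genes named below as higher or lower whose calls were tried under all 12 alternatives, 16 passed in every one and 17 did not pass without mouse 3.

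Upstream of NFATc1, 4 of 25 tested genes of RANK and M-CSF signalling were higher and none lower, with a median of 0.04. They were *Src* (1.39, adjusted p = 7.58e-05), the kinase of the osteoclast's sealing zone, and *Relb* (1.00), *Nfkb2* (0.63) and *Traf3* (0.41), which encode NFκB subunits and the brake of the alternative NFκB pathway. The M-CSF receptor gene *Csf1r* did not pass, with 1494 ± 68.4 CPM in vehicle and 1490 ± 238 CPM in bilirubin cultures (log2 fold change -0.02). The gene for RANKL, *Tnfsf11*, had at most 1 count in any library and that for its decoy receptor, *Tnfrsf11b*, at most 8, so neither was tested. Among 12 tested genes of ITAM costimulation, *Syk* was higher (0.22) and *Fcer1g* (-0.14) and *Tec* (-0.16) were lower, with a median of -0.09. *Fcer1g* passed in 7 of the 12 alternatives (adjusted p up to 0.173), *Tec* in 6 (up to 0.243) and *Syk* in 10. Also of this list, the adaptor gene *Tyrobp* did not pass (-0.11, adjusted p = 0.0851).

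Most transcription factors of the osteoclast lineage did not pass. Of 15 tested, *Fos* (0.45, adjusted p = 5.94e-04), a subunit of AP-1, and *Rbpj* (0.28) were higher, *Mef2a* (-0.40) was lower, and the median was 0.08. This list does not separate factors that promote osteoclast formation from those that restrain it. *Rbpj* and *Mef2a* did not pass without mouse 3 (adjusted p = 0.0578 and 0.0531). *Spi1*, which encodes PU.1, and *Mitf* did not pass (0.08 and 0.10, adjusted p = 0.1997 and 0.278). Of 11 inhibitors of osteoclast formation, 4 were higher and 2 lower, with a median of -0.11. Those higher were the inhibitory receptor genes *Pirb* (0.37) and *Lilrb4a* (0.29), their phosphatase *Ptpn6* (0.21) and the NFκB inhibitor *Tnfaip3* (0.38). Those lower were *Id1* (-0.66, adjusted p = 1.60e-04) and *Id2* (-0.23), which encode inhibitors of the osteoclast transcription program, whereas *Irf8*, another of them, did not pass (-0.21, adjusted p = 0.0674). In the 12 alternatives *Ptpn6* passed in 8 (adjusted p up to 0.142), *Tnfaip3* in 7 (up to 0.241) and *Id2* in 7 (up to 0.158), while *Pirb*, *Lilrb4a* and *Id1* passed in all.

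Downstream, 2 of 10 tested fusion genes were higher, *Cd47* (0.32) and the sorting nexin gene *Snx10* (0.24), and *Adam8* (-0.24) was lower, with a median of 0.01. *Adam8* passed in 7 of the 12 alternatives (adjusted p up to 0.168) and *Snx10* in 10 (up to 0.0930). Bone resorption and attachment had 5 of 18 tested genes higher and 2 lower, with a median of 0.04. The metalloproteinase genes *Mmp9* (5.72, adjusted p = 3.84e-05) and *Mmp14* (2.48, adjusted p = 5.51e-05) had the largest changes of all 8 lists, and *Tm4sf19* (0.60), *Ctsz* (0.31) and the chloride transporter gene *Clcn7* (0.18) were also higher. *Itgav* (-0.59, adjusted p = 2.94e-04) and *Itgb3* (-0.58, adjusted p = 0.0415), which encode the subunits of the vitronectin receptor that anchors osteoclasts to bone, were lower. *Itgav* passed in all 12 alternatives, *Itgb3* in 8 (adjusted p up to 0.247) and *Tm4sf19* in 9 (up to 0.0994). The call of *Clcn7* was not tried under the alternatives. *Car2* and *Calcr*, markers of mature osteoclasts, had at most 11 and 0 counts in any library and were not tested.

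Of 16 vacuolar ATPase subunits, the membrane subunits *Atp6v0c* (0.41) and *Atp6v0b* (0.14) were higher and *Atp6v0a1* (-0.30) was lower, with a median of 0.03. *Atp6v0b* passed in 6 of the 12 alternatives (adjusted p up to 0.181) and the others in all. Mineral and coupling factors, the list nearest to *Enpp1*, had 1 of 15 tested genes higher and 4 lower, with a median of 0.08. The semaphorin gene *Sema4d* (0.26), an osteoclast signal to osteoblasts, was higher. *Spp1* (-0.60, adjusted p = 0.00154), which encodes osteopontin, *Epha2* (-0.71), *Lrp5* (-0.32) and *Ltbp3* (-0.30) were lower, as *Enpp1* was. *Spp1* passed in all 12 alternatives, *Lrp5* in 11 and *Sema4d*, *Epha2* and *Ltbp3* in 10, failing without mouse 3. *Alpl*, whose product cleaves pyrophosphate, had at most 3 counts in any library, and *Enpp3* at most 2.

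**Figure D4:**
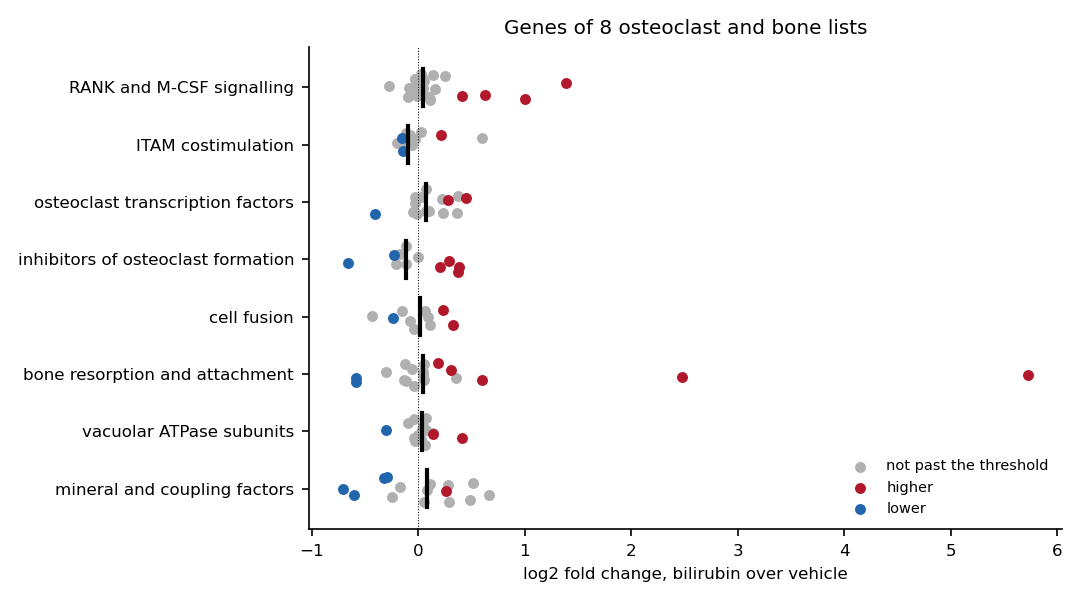
Log2 fold change of bilirubin over vehicle for the 122 tested genes of 8 lists, a point for each gene, coloured by its call (red, higher; blue, lower; grey, not past the threshold) with the median of each list as a black bar. The medians are all near 0, between -0.11 and 0.08, while *Mmp9* and *Mmp14* stand apart at 5.72 and 2.48.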

How the data were processed

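RNA of BMDM was sequenced from 8 cultures, 1 with vehicle and 1 with bilirubin for each of 4 mice. The authors trimmed reads with Trim Galore 0.6.7 and Cutadapt 3.4, aligned them with STAR 2.7.9a to GRCm39 and quantified them with Salmon 1.10.1. They deposited the estimated counts (expected counts) per gene, not normalized, and, for 142434 transcripts in each library, TPM, estimated counts and the effective length. The strand setting of the counting is not given in the sources used here. Of the changed genes, *Acp5* (*6530413G14Rik*), *Dcstamp* (*Gm62978*) and *Traf6* (*Gm75411*) overlap an annotated gene on the other strand. *Ctsk* and *Enpp1* overlap none. The part of such overlaps in the counts was not tested. Estimated counts were rounded, filtered with filterByExpr (minimum count 10, minimum total 15), scaled by TMM, and compared with edgeR 4.0.16 in R 4.3.3 (glmQLFit and glmQLFTest, mouse and treatment in the model), with Benjamini-Hochberg adjustment over all 13722 tested genes. Each standard error is the log2 fold change divided by the root of its F value, and differences within a mouse used log2 CPM with a prior count of 2. The study's methods name limma, which was run as an alternative.

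Cultures were paired because they came from the same animal. Deviations from the group means, compared between both cultures of a mouse, correlated by -0.0053 to 0.134 (mean 0.0862), against a mean of -0.0279 between mice. Alternatives were no mouse term, DESeq2 1.42.0, limma 3.58.1 (voom), other scalings, other filters, a transcript length offset and leaving out each mouse. On simulated data for this comparison (13538 genes, 200 changed), 99% of 2-fold changes were recovered and 4.78% of calls were false. Changes were simulated only in genes of higher mean count than *Dcstamp* and *Ocstamp*, and none was smaller than 2-fold. The recovery rate therefore does not cover *Dcstamp*, *Ocstamp* or smaller changes such as that of *Traf6*.

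The genes described and all lists were chosen with earlier results of these data known. Beside the 10 genes, the text names up to 4 called genes of each list in each direction by smallest adjusted p, some genes whatever their change (*Csf1r*, *Spi1*, *Irf8*, *Mitf*, *Tyrobp*, *Itgb3*, *Mmp9*, *Tnfsf11*, *Tnfrsf11b* and *Atp6v0d1*), markers above 1 CPM, and for each changed gene the 3 genes with the most similar pattern. *Clcn7*, *Car2*, *Calcr*, *Alpl*, *Enpp3*, *Rela*, *Cd44* and *Bcl6* were named after their values had been seen. The overlapping genes, such as *Gm70609*, and the cathepsin genes set beside *Ctsk* were also named after values had been seen. The result of 1 gene is not reported here, and it was left out of the lists. *Ankh* of the lists is *Ank* in the table. Gene positions are those of GENCODE for GRCm39, and promoter sequences are from RefSeq, placed by exact match.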

Additional observations from a re-analysis of the deposited data

Results flagged for a closer look

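Libraries were checked gene by gene for a value far from the other 3 of its condition, over 105 groups of 4 libraries, and 6 stood apart by Dixon's criterion, where chance gives about 5%. Among the 10 genes, the vehicle culture of mouse 1 had *Dcstamp* at 0.126 CPM, against 0.642 to 0.682 in the other 3 vehicle cultures. That library had 6 *Dcstamp* counts. The same culture had *Rbpj* at 207 CPM (230 to 234 in the others) and *Adam8* at 2450 CPM (2579 to 2591). In the bilirubin culture of mouse 1 *Csf1r* was at 1840 CPM, against 1331 to 1402. *Id1* in the vehicle culture of mouse 3 was at 112 CPM (105 to 106 in the others), and *Itgav* in the bilirubin culture of mouse 2 at 328 CPM (266 to 277). No other gene of the 10 was flagged.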

How the results depend on the processing

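*Ctsk*, *Acp5*, *Enpp1* and *Traf6* passed in all 12 alternatives run, *Traf6* with an adjusted p of at most 0.0489. *Dcstamp* passed in 10, failing without mouse 3 and with the length offset, which left 2 of the 9 genes higher; the count of lower genes was 2 throughout. *Ocstamp* was not tested under the filter of a CPM above 1 in 4 libraries. With a mouse left out, values of either sign and none past the threshold were seen for *Tnfrsf11a* (-0.0212 to 0.00678), *Ocstamp* (-0.67 to 0.23, the latter without mouse 4) and *Csf1r* (-0.11 to 0.0305), and the median of the 9 genes was -0.0212 to 0.0544. Without the replicate block (no mouse term), 458 genes were higher and 228 lower, against 616 and 417 with it, and the calls of the 10 genes did not change. With the length offset 372 were higher and 207 lower, and without a filter 918 were higher and 774 lower. Scaling by library size alone gave 527 higher and 556 lower, 48.7% higher in place of 59.6%. Leaving out a mouse gave 265 (without mouse 3) to 1026 (without mouse 1) higher and 112 to 884 lower, with 302 and 139 without mouse 4 and 419 and 215 without mouse 2. The cause was not tested. Of 33 named list genes, calls were lost for 17 without mouse 3, 13 without mouse 4, 8 without mouse 2, and 8 each without the mouse term or with the length offset. Depth limits *Dcstamp*, *Ocstamp* and *Oscar*. In the main fit p-values rest on the spread of the differences within the 4 mice, with its estimate shared over all genes.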

Other observations

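For each gene that passed the threshold, the 3 tested genes of most similar pattern were found by Pearson's r over 8 libraries in log2 CPM after each mouse's mean was removed. These r were between 0.998 and 0.9999, rest on 4 paired differences that mostly follow the treatment, and are given as a description. *Ctsk* was nearest to *Ednrb*, the endothelin B receptor gene (log2 fold change 1.53), *Cdc42ep2* (2.35) and *Ptpn22* (0.58). *Acp5* was nearest to *Slpi*, a secreted protease inhibitor gene (2.59), *Plxna1*, a semaphorin receptor gene (0.34), and *Atp6v0c-ps2* (0.46), a pseudogene whose counts may be shared with *Atp6v0c*. *Dcstamp* was nearest to *Sestd1* (0.23), *Gm6166* (0.20) and *Mlxip* (0.08, adjusted p = 0.235), the last of which did not pass. *Enpp1* was nearest to the receptor tyrosine kinase gene *Axl* (-0.54), *Nt5dc2* (-0.27) and *Fam98c* (-0.30). *Traf6* was nearest to *Mgat5*, a gene of N-glycan branching (-0.25), *Luzp1* (-0.27) and *Wipf1* (-0.20).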
